A study of Oryza sativa with 16 samples.

Results

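At 717 rice loci the array carried 2 or more probes that each belong to a different full-length cDNA clone of the locus. These loci were selected by probe name alone. A locus was taken when at least 2 different probes named for it ended in _S and a number, and the 1528 probes with that ending are described here. They lie at 3.51% of the 20419 loci defined by full-length cDNA (FL-cDNA) on the array, which held 83040 different probes. In the array annotation every _S probe carries the tag SPEC and the name of 1 clone, and at all 717 loci each _S probe named a clone of its own. Another probe, ending in _C and tagged COMM with no clone name, was present at 710 of the loci. The annotation does not explain these tags, so the _S probes are called clone-named probes and the _C probe the common probe. Most loci (633) had 2 clone-named probes, 76 had 3, 6 had 4 and 2 had 5.

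A gene can give several kinds of mRNA, because transcription can start or end at different places and because introns can be removed in different ways. In plants, retention of an intron is a frequent form of this variation, and tissues are known to differ in the forms they use. A full-length cDNA clone records 1 such mRNA from its cap to its tail, so 2 clones of a locus can differ in their exons or ends. A probe placed on sequence that only 1 clone holds reads that form, whereas a probe on shared sequence reads all forms together. FL-cDNA clones can also hold rearranged sequence. When all forms of a gene change alike between tissues, every probe of the locus would ideally give the same ratio. A difference between the ratios of 2 probes of a locus is therefore the quantity followed here.

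RNA of 4 sources was compared on 2-color arrays, with Nipponbare shoot as the control in every hybridization. Nipponbare is a japonica cultivar of rice and IR64 an indica cultivar, and the labels name no transgene or treatment. The tested samples were Nipponbare root, grown in hydroponic culture for 10 days, Nipponbare panicle from the field, Nipponbare callus after 28 days of culture, and IR64 shoot. Shoots of both cultivars were 10 days old in the labels, whereas the methods of the study give another age. RNA from several plants was pooled. Shoot RNA was extracted with another reagent than the RNA of root, panicle and callus, so extraction and tissue cannot be told apart in those comparisons. Callus is a mass of dividing, unorganized cells grown on medium with auxin, and the panicle is the flowering branch of rice.

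Each comparison had 2 replicates, and each replicate was hybridized to 2 array sets that hold different probes, giving 16 arrays. Replicate 1 carried the tissue in the Cy3 channel, and replicate 2 in the Cy5 channel. The labels name 1 shoot extract for replicate 1 and another for replicate 2, except in callus, where both replicates name the same extract, so the shoot side of callus was not replicated. Nothing states that the replicates are separate plants or cultures, and the p-values measure the spread between these hybridizations only, which may be technical. All 4 arrays of a comparison share a scan day that no other comparison has, so scan day and comparison cannot be told apart. Tissue labels were not checked on marker genes, because the probe identifiers carry no gene names. Between 13 and 2047 of the 42034 probes on an array were marked as outliers and left out. The number of arrays limits the precision.

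Values are log2 ratios of tissue over Nipponbare shoot on the same array, so that 1 stands for a doubling and a negative value for a lower signal in the tissue. The brightness of different probes was not compared. In bulk RNA, fewer cells of a type and less RNA per cell cannot be told apart. Most clone-named probes gave a measurable signal. A signal well above background in at least 1 channel of both replicates was found for 1438 of the 1528 probes in root, 1420 in panicle, 1460 in callus and 1382 in IR64.

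Clone-named probes changed in both directions in the 3 Nipponbare tissues, and fewer of them were called in IR64 shoot. In root, 342 of the 1528 probes were higher and 395 lower than in shoot (limma, adjusted p under 0.05), which is 22.4% and 25.9%. Over all probes of the array 23.2% were higher and 23.2% lower. In panicle 320 were higher and 426 lower (21% and 27.9%), against 22.6% and 24.6% of all probes. In callus 351 were higher and 436 lower (23% and 28.6%), against 24.9% and 24.6% of all probes. In IR64 29 were higher and 86 lower (1.9% and 5.63%), against 2.86% and 4.27% of all probes. In either direction, 46.4% of all probes were called in root, 47.2% in panicle, 49.5% in callus and 7.13% in IR64. Leaving out a replicate lowered the 737 calls in root to 469 without replicate 1 and 442 without replicate 2, the 787 in callus to 519 without replicate 1, and the 115 in IR64 to 68 without replicate 2. With only the IR64 arrays in the fit, limma called 0 clone-named probes in IR64, where 188 had an unadjusted p under 0.05. In the Nipponbare tissues the shares of clone-named probes were near those of the whole array, with somewhat more lower calls. In IR64 the share of higher calls was below that of the array, and the share of lower calls above it. These departures from the array shares were not tested. The ratios ranged from -6.6 to 4.98 in root, from -6.41 to 4.35 in panicle, from -6.86 to 5.09 in callus and from -6.02 to 3.82 in IR64. Their medians lay between -0.15 and 0.00, and the quartiles of the root ratios were -0.62 and 0.63.

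Probes of different clones of a locus often gave different ratios. Among the 717 loci there were 917 pairs of clone-named probes, and a pair was tested where each probe was well above background in at least 1 channel of both replicates. A pair was called when its 2 log2 ratios differed by at least 1 with an adjusted p under 0.05 (limma, Benjamini-Hochberg over all pairs of probes within a locus). In root 278 of 818 tested pairs were called, which is 34%, against 19.5% of all within-locus pairs on the array. In panicle 265 of 799 were called (33.2%, against 20.1%). In callus 317 of 838 were called (37.8%, against 22.2%). In IR64 39 of 752 were called (5.19%, against 3.4%). Pairs at a locus with 3 or more clone-named probes share probes and are not independent. Leaving out a replicate lowered these counts, to 141 without root replicate 1 and 140 without root replicate 2, to 173 without panicle replicate 1, to 173 without callus replicate 1 and 178 without callus replicate 2, and to 23 without IR64 replicate 1.

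The typical size of these differences was under 1 on the log2 scale. The median absolute difference of a tested pair of clone-named probes was 0.82 in root, 0.79 in panicle, 0.85 in callus and 0.29 in IR64. The median SD between replicates of the same differences was 0.31, 0.32, 0.28 and 0.30 in that order. A difference under 0.5 was measured for 277 pairs in root, 272 in panicle, 260 in callus and 528 in IR64. At the other end, 41 pairs in root, 30 in panicle, 47 in callus and 6 in IR64 differed by at least 3. In IR64, therefore, the middle pair differed by about the spread between replicates, and in the Nipponbare tissues by clearly more than that spread.

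Other kinds of within-locus pairs give a scale for these shares. Pairs of probes of the kind named E5, which are tagged COMM like the common probe, were called in 16.8% of cases in root, 17.2% in panicle, 19.6% in callus and 2.93% in IR64. Their median absolute differences were 0.41, 0.435, 0.43 and 0.16. At the loci described here an _S probe against the common probe was called in 31.3%, 31.4%, 35.2% and 4.63% of cases. At loci with only 1 _S probe the same kind of pair was called in 33.3%, 32%, 34.4% and 4.42%. Clone-named probes were also dimmer, with a median log2 signal of 10.3 in the root pairs against 11.4 for E5 pairs, and the replicate SD of their differences was larger (0.31 against 0.19). The part of brightness in the shares of calls was not tested.

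Of the 917 pairs, 457 joined probes on different array sets, so their ratios came from different slides. Pairs of both arrangements were called. Of the pairs on the same array set 37.4% were called in root, 33.4% in panicle, 39.9% in callus and 4.72% in IR64. Of the pairs across array sets 30.6%, 32.9%, 35.7% and 5.66% were called. Probes that were present on both array sets measured the slide error directly. The SD of the difference between the 2 ratios of the same probe lay between 0.14 in IR64 replicate 1 and 0.41 in panicle replicate 1.

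For 30 of the clones the array held another probe that carries the name of the clone. In root the _S probe and this clone probe differed by a median of 0.51 over 29 clones, and 10 of the 29 pairs differed at least 2-fold. In panicle the median was 0.38 over 28 clones, with 3 pairs at least 2-fold apart. In callus the median was 0.76 over 29 clones, with 8 pairs at least 2-fold apart. In IR64 it was 0.33 over 28 clones, with 3 such pairs. Probes that carry the name of the same clone thus also gave different ratios. Which part of the clone each of these probes lies on was not analysed here.

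In most called pairs the probes stood on opposite sides of the shoot level or only 1 of them changed. Called pairs were selected for differing from each other, so opposite signs are favored by that choice. The same counts were not made for other kinds of within-locus pairs. Whether the pattern is particular to clone-named probes was therefore not tested. In root, 159 of the 278 called pairs had ratios of opposite sign, 70 were both negative and 49 both positive. In 164 of them only 1 of the probes passed the test for itself, in 54 both passed in the same direction and in 58 both passed in opposite directions. In panicle, 167 of 265 had opposite signs, and 57 had both probes called in opposite directions. In callus, 181 of 317 had opposite signs, and 62 had both probes called in opposite directions. In IR64, 20 of 39 had opposite signs, and 2 had both probes called in opposite directions.

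Counted by locus, all clone-named probes were higher at 45 loci and all lower at 64 loci in root. In panicle these counts were 44 and 75, in callus 55 and 81, and in IR64 0 and 9. At 56 loci in root, 54 in panicle, 60 in callus and 1 in IR64 a clone-named probe was higher while another was lower. At least 1 called pair was found at 239 of 637 tested loci in root, 229 of 625 in panicle, 272 of 657 in callus and 33 of 593 in IR64. None of these counts by locus was made for the other FL-cDNA loci, so whether they are many was not tested. Loci with 3 to 5 clone-named probes offer more pairs, and 46 of 84 such loci had a called pair in root, against 193 of 553 loci with 2. By pair the shares were close, 32.1% against 34.9% in root. The loci lay on all 12 chromosomes, and their share of the FL-cDNA loci ranged from 2.61% on chromosome 5 to 4.61% on chromosome 4.

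Against the common probe, clone-named probes departed in both directions. In root 208 were above and 226 below the common probe of their locus by a called difference, of 1388 tested. In panicle 194 were above and 232 below, of 1358. In callus 216 were above and 287 below, of 1431. In IR64 36 were above and 24 below, of 1295. In either direction these are 31.3%, 31.4%, 35.2% and 4.63% of tested pairs, against 19.5%, 20.1%, 22.2% and 3.4% of all within-locus pairs. The shares at loci with only 1 _S probe were close, at 33.3%, 32%, 34.4% and 4.42%. The split by direction was not made for other kinds of pair. The calls against the common probe fell to 226 without root replicate 1 and 208 without root replicate 2, to 282 without callus replicate 1 and 284 without callus replicate 2, and to 32 without IR64 replicate 1. With only the IR64 arrays limma called 0 of them, where 146 had an unadjusted p under 0.05. Where a called pair of clone-named probes also had a tested common probe, the usual case was that 1 of the probes departed from the common probe and the other did not. This held for 168 of 270 pairs in root, 158 of 256 in panicle, 201 of 310 in callus and 19 of 34 in IR64. Both departed in 37, 34, 48 and 4 pairs, and 1 stood above and the other below the common probe in 11, 12, 20 and 1 of these. Since these pairs were called for differing from each other, a departure of 1 probe is favored by that choice. The split was not made for pairs that were not called.

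In root, the largest difference between clone-named probes with all signals well above background was found at locus R09-00252F on chromosome 9. Probes and loci are given by their identifiers, in which the first number is the chromosome, and the files name no gene for them. The log2 ratio of R09-00252F_S2 was -4.46 and -4.62 in the root replicates. That of R09-00252F_S3 was 1.23 and 0.97. The first probe was far below the shoot level in root and the second above it, with no overlap. Their difference was -5.64 ± 0.27 (SE of the limma fit, n = 2 per comparison), a 49.9-fold difference in ratio (limma, adjusted p = 0.000308). Here and below, the SE pools the spread between replicates over all comparisons. It is not the spread of the named tissue alone. The third clone-named probe, R09-00252F_S1, lay near the shoot level at -0.42 and -0.13, and the common probe was at -2.68 and -2.98. The locus thus had a probe that was lower, a probe that was higher and a probe near 0 in the same RNA.

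The same arrangement was seen in the other Nipponbare tissues. In panicle R09-00252F_S2 was at -3.96 and -3.97 and R09-00252F_S3 at 2.23 and 1.27, a difference of -5.71 ± 0.27 (limma, adjusted p = 0.000393), the largest of the panicle pairs that met the same conditions. In callus they were at -4.00 and -3.93 and at 1.42 and 1.47, a difference of -5.42 ± 0.27 (limma, adjusted p = 0.000261). All these comparisons share the shoot control. In IR64 shoot the direction was the other one. There R09-00252F_S2 was at 0.25 and -0.24, whereas R09-00252F_S3 was at -2.11 and -3.24, and the difference was 2.68 ± 0.27 (limma, adjusted p = 0.00668). For IR64, a change in transcript level and a sequence difference under the probe cannot be told apart.

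At locus R03-00560F on chromosome 3, probe R03-00560F_S2 was strongly lower in root, at -5.29 and -5.27. R03-00560F_S1 was at -0.40 and -0.10. The common probe, at -4.17 and -3.41, was also lower and stood nearer to the former. The difference between the clone-named probes was 5.03 ± 0.23 (limma, adjusted p = 0.000301). At locus R04-00285R the probe R04-00285R_S2 was at -4.02 and -3.84, whereas R04-00285R_S1 was at 0.78 and 1.34 and the common probe at -0.61 and -0.31. The difference of the clone-named probes was 4.99 ± 0.48 (limma, adjusted p = 0.00125). Here the common probe was nearer to the probe that did not fall. At locus R11-00010F the change went upward, since R11-00010F_S2 was at 4.24 and 4.50 in root while R11-00010F_S1 was at -0.29 and -0.94. The common probe was at -0.58 and -0.87, and the difference was -4.99 ± 0.61 (limma, adjusted p = 0.00266). With normexp background correction and loess it was -2.93.

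Other loci had 1 clone-named probe called higher and another called lower in root. At locus R12-00389F on chromosome 12, R12-00389F_S1 was at 1.45 and 2.23 and R12-00389F_S2 at -2.84 and -0.94. The replicates of the second probe were far apart, yet those of the 2 probes did not overlap, and the difference was 3.73 ± 0.40 (limma, adjusted p = 0.0032). With normexp background correction and loess it was 1.59. The third probe, R12-00389F_S3, was at 0.91 and 1.29, and the common probe at -0.21 and -0.31. At locus R06-00280R, R06-00280R_S1 was at 1.65 and 2.00, R06-00280R_S2 at 2.39 and 1.71 and R06-00280R_S3 at -1.14 and -1.64. The first pair of these probes was higher in root with the common probe (2.18 and 1.53), and the third was lower. The difference between R06-00280R_S1 and R06-00280R_S3 was 3.21 ± 0.26 (limma, adjusted p = 0.000815), and 2.03 with normexp and loess.

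Locus R04-00228F had probes called in opposite directions in root, whereas both were called lower in panicle and callus. R04-00228F_S2 was at 1.67 and 1.67 in root, at -0.78 and -0.87 in panicle and at -0.47 and -0.60 in callus. R04-00228F_S1 was at -1.21 and -1.39 in root, at -1.72 and -1.71 in panicle and at -1.23 and -1.48 in callus. Among the 3 tissues the first of these probes was above the shoot level in root only, and the other was below it in all 3 tissues. Their difference, taken as _S1 minus _S2, was -2.97 ± 0.14 in root (limma, adjusted p = 0.000308), -0.89 ± 0.14 in panicle (adjusted p = 0.00707) and -0.82 ± 0.14 in callus (adjusted p = 0.00805). The last 2 are under the size of 1 that a call requires.

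In panicle, locus R09-00364R on chromosome 9 had a probe that was higher in panicle alone among the Nipponbare tissues measured. R09-00364R_S1 was at 2.36 and 2.62 in panicle, at -1.26 and -1.27 in root and at -1.73 and -1.45 in callus. R09-00364R_S2 was at -1.73 and -2.02 in panicle, at -1.39 and -2.08 in root and at -1.51 and -2.00 in callus. In root and callus both probes were similarly low, and in panicle they stood on opposite sides of the shoot level. The difference was 4.37 ± 0.28 in panicle (limma, adjusted p = 0.000598), 0.47 ± 0.28 in root (adjusted p = 0.284) and 0.17 ± 0.28 in callus (adjusted p = 0.725). The common probe was at -1.59 and -0.98 in panicle and did not share the rise.

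At locus R10-00379R the probe R10-00379R_S1 was at -3.14 and -4.03 in panicle and R10-00379R_S2 at 0.88 and 1.04. The difference was -4.55 ± 0.34 (limma, adjusted p = 0.000815). Similar differences were measured in root, at -4.10 ± 0.34, and in callus, at -3.78 ± 0.34. The common probe of this locus was at 0.51 and 1.48 in panicle, near R10-00379R_S2. At locus R04-00127F, which had 4 clone-named probes, R04-00127F_S1 was at 1.55 and 1.74 in panicle and R04-00127F_S3 at -2.80 and -2.34, a difference of 4.21 ± 0.21 (limma, adjusted p = 0.000412). R04-00127F_S2, at -0.53 and -0.39, and R04-00127F_S4, at -0.05 and 0.17, lay between them. The common probe of this locus was at 0.58 and 0.32 in panicle, but at -4.11 and -3.92 in root and at -3.24 and -2.82 in callus. In panicle it was thus near the shoot level, and in the other tissues far below it.

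Locus R01-01434F on chromosome 1 had probes called in opposite directions in all 3 Nipponbare tissues. In panicle R01-01434F_S2 was at -2.04 and -1.71, and R01-01434F_S3 at 2.00 and 2.03. In callus the same probes were at -2.67 and -2.37, and at 1.93 and 1.71. The difference was -3.89 ± 0.19 in panicle (limma, adjusted p = 0.000402) and -4.34 ± 0.19 in callus (adjusted p = 0.000242). The common probe stayed close to the shoot level, at -0.28 and 0.09 in panicle and at 0.25 and 0.12 in callus. It was not called in any of the 3 tissues. At locus R05-00654R, R05-00654R_S1 was at 1.80 and 2.17 in panicle and R05-00654R_S3 at -1.5 and -2.02, a difference of 3.75 ± 0.34 (limma, adjusted p = 0.00124), or 2.1 with normexp and loess. There R05-00654R_S2, at -0.40 and -0.50, and the common probe, at 0.57 and 0.54, lay between the other probes.

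In callus the largest difference was at locus R12-00142F on chromosome 12. R12-00142F_S2 was at 5.13 and 4.77, and R12-00142F_S1 at -1.97 and -2.52. The other probes of the locus were between them, R12-00142F_S3 at 2.32 and 2.15 and the common probe at 1.5 and 2.11. With each channel set to a median of 1000, the shoot signal of the common probe was 18700 and 12800 on the callus arrays. It was 3130 and 3310 on the root arrays and 1750 and 2040 on the panicle arrays. The callus ratio of the common probe thus does not rest on a constant shoot level. The difference between R12-00142F_S1 and R12-00142F_S2 was -7.19 ± 0.59 (_S1 minus _S2; limma, adjusted p = 0.000686). R12-00142F_S2 was also higher in root, by at least 10.3-fold, where its shoot signal was not well above background in either replicate. A bound of this kind sets the dim channel to the lowest signal that was well above background on the array, or to the signal of the probe itself where that is higher.

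At locus R09-00235R on chromosome 9, R09-00235R_S2 was at -6.35 and -5.93 in callus, whereas R09-00235R_S1 was at -0.01 and 0.26. The difference was 6.27 ± 0.31 (limma, adjusted p = 0.000261). At locus R07-00167F the change was upward, with R07-00167F_S1 at 4.91 and 5.28 in callus and R07-00167F_S2 at -0.86 and -0.03. R07-00167F_S3, at 2.94 and 2.83, was higher too. The difference between R07-00167F_S1 and R07-00167F_S2 was 5.54 ± 0.64 (limma, adjusted p = 0.00182). At locus R05-00180R, R05-00180R_S1 was at -1.95 and -2.16 in callus and R05-00180R_S2 at 1.53 and 1.74, a difference of -3.69 ± 0.29 (limma, adjusted p = 0.00062). The common probe of that locus, at -0.94 and -0.52, was again between the 2 clone-named probes.

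In root and panicle the largest departures from the common probe were larger than the largest differences between clone-named probes measured under the same conditions. At locus R04-00818R on chromosome 4 the common probe was at -6.44 and -6.66 in root and at -6.70 and -6.85 in callus. R04-00818R_S1 was at 0.52 and 0.93 in root and at 0.29 and 0.27 in callus. The difference was 7.28 ± 0.24 in root (limma, adjusted p = 0.000301) and 7.05 ± 0.24 in callus (adjusted p = 0.000261). The common probe was thus far below the shoot level in both tissues, and the clone-named probe was not. The other clone-named probe, R04-00818R_S2, was at -0.11 and -1.12 in root.

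A like contrast was found at locus R03-00142R, where the common probe was at -6.87 and -7.05 in root and R03-00142R_S1 at 0.46 and 0.15. The difference was 7.27 ± 0.16 (limma, adjusted p = 0.000237). In panicle, R08-00507F_S2 was at -0.06 and -0.62 while the common probe of locus R08-00507F was at -7.33 and -7.07, a difference of 6.86 ± 0.31 (limma, adjusted p = 0.000384). With each channel set to a median of 1000, R08-00507F_S2 was dim, at 200 and 178 in panicle and 209 and 277 in shoot. The part of this low signal in the difference was not tested. The other clone-named probe, R08-00507F_S1, was at -0.95 and -2.38 in panicle and was called lower (limma, adjusted p = 0.0106). At locus R02-00095F the common probe was the higher one. It was at 2.30 and 2.35 in panicle and at 3.00 and 2.79 in callus, whereas R02-00095F_S2 was at -3.94 and -4.51 in panicle and at -3.88 and -4.57 in callus. The difference was -6.55 ± 0.28 in panicle (limma, adjusted p = 0.000384) and -7.12 ± 0.28 in callus (adjusted p = 0.000242). In panicle it was -4.00 with normexp and loess.

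In IR64 shoot, few pairs were called. At locus R06-00523F on chromosome 6, R06-00523F_S1 was at -6.37 and -5.67 in IR64 and R06-00523F_S2 at -0.25 and 0.11. The difference was -5.96 ± 0.40 (limma, adjusted p = 0.00327). The common probe was at -2.81 in replicate 1, and its spot in replicate 2 was an outlier and was left out. In root the same clone-named probes differed by -0.31 ± 0.40 and in panicle by 0.13 ± 0.40, which is within the error. In callus R06-00523F_S1 was at -2.11 and -0.39 and R06-00523F_S2 at -0.10 and -0.21, so the former was lower in both replicates. Neither probe was called in callus.

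At locus R05-00439R on chromosome 5, the only locus with opposite calls in IR64, R05-00439R_S1 was at -2.85 and -3.22 and R05-00439R_S2 at 1.52 and 1.35. The difference was -4.47 ± 0.17 (limma, adjusted p = 0.00186). In root both probes were lower, at -2.55 and -2.59 and at -3.48 and -3.64, so the opposite change was not seen there. In IR64 the third clone-named probe, R05-00439R_S3, was at -1.53 and -2.41 (limma, adjusted p = 0.00826). The common probe was at -1.01 and -1.20 there (limma, adjusted p = 0.0332). Both were thus called lower, like R05-00439R_S1. At locus R02-01065F, R02-01065F_S2 was at 3.77 and 3.87 in IR64 and R02-01065F_S1 at 0.36 and 0.47, a difference of -3.41 ± 0.26 (limma, adjusted p = 0.00364), or -1.86 with normexp and loess. At locus R01-00535R, R01-00535R_S2 was at -3.01 and -3.36 and R01-00535R_S1 at 0.34 and 0.09, a difference of 3.40 ± 0.18 (limma, adjusted p = 0.00204). This last pair also differed in root, by 2.28 ± 0.18 (adjusted p = 0.000766). With only the IR64 arrays in the fit, no pair of clone-named probes was called in IR64 by limma, although 95 had an unadjusted p under 0.05.

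Whether the within-locus difference in probe ratios differed between Nipponbare tissues was tested as a contrast of 2 tissues. The contrast compares probes, and probes named for the same clone also differed, as given above. A pair was counted as turning when its difference had opposite signs in the tissues, each at least 0.5, and the contrast had an adjusted p under 0.05. Of 822 pairs of clone-named probes tested in 2 tissues or more, 28 pairs at 24 loci turned, which is 3.41%, against 1.73% of all within-locus pairs. There were 11 between root and panicle, 13 between root and callus and 14 between panicle and callus, and 10 pairs turned in 2 of these contrasts. In 33 of the 38 contrasts every probe was well above background in both channels. Of the 28 pairs 15 lay on the same array set. This count rests on single hybridizations. It was 0 without root replicate 1, without callus replicate 1 or without callus replicate 2, 2 without root replicate 2, and 7 and 9 without panicle replicates 1 and 2. The pairs with opposite signs and an unadjusted p under 0.05 in limma were 51 with all hybridizations and 44 to 61 without one.

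At locus R10-00071R on chromosome 10, the turn was between root and callus. R10-00071R_S2 was at 0.47 and 0.51 in root, at -1.43 and -1.36 in panicle and at -4.67 and -4.50 in callus. R10-00071R_S1 was at -1.19 and -1.05 in root, at -1.29 and -1.14 in panicle and at -1.80 and -1.54 in callus. The former thus spanned a wide range over the tissues, and the latter stayed within a narrow one. Their difference, _S1 minus _S2, was -1.61 ± 0.14 in root (limma, adjusted p = 0.000991), 0.18 ± 0.14 in panicle (adjusted p = 0.405) and 2.91 ± 0.14 in callus (adjusted p = 0.000261). The contrast of root minus callus was -4.52 (adjusted p = 0.00634). The common probe was at 0.69 and -0.08 in root and at -3.80 and -4.22 in callus, near R10-00071R_S2.

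Locus R07-00546R on chromosome 7 turned between root and panicle. R07-00546R_S2 was at -2.06 and -2.02 in root and at 2.19 and 1.77 in panicle. R07-00546R_S1 was at -0.65 and -0.46 in root and at -0.91 and -0.59 in panicle. The difference was 1.49 ± 0.20 in root (limma, adjusted p = 0.00393) and -2.73 ± 0.20 in panicle (adjusted p = 0.000789), and the contrast was 4.22 (adjusted p = 0.00676). The common probe, at 2.43 and 2.50 in panicle, was close to R07-00546R_S2 there. In root the common probe, at -0.22 and 0.71, was above R07-00546R_S2. With each channel set to a median of 1000, the shoot signal of R07-00546R_S2 was 7770 and 6060 on the panicle arrays. On the root arrays it was 1160 and 1410, so this contrast does not rest on a constant shoot level. Locus R09-00235R, whose callus values are given above, showed the largest contrast. In panicle its probes were at 0.46 and -0.63 and at 0.36 and 0.63, so that they overlapped, and the difference of -0.58 ± 0.31 was not called there (limma, adjusted p = 0.223). The contrast of panicle minus callus was -6.84 (adjusted p = 0.00634), to which the callus difference contributed most.

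Locus R11-00279F on chromosome 11 turned between panicle and callus and also between root and panicle. R11-00279F_S2 was at 2.41 and 2.43 in panicle, and R11-00279F_S3 at 0.67 and 0.46. In root and callus the signal of R11-00279F_S2 in the tissue was not well above background in either replicate, and it was at least 5.09-fold lower than in shoot in root and at least 9.77-fold lower in callus. R11-00279F_S3 was at -0.88 and -0.74 in root and at -1.30 and -1.69 in callus. Both probes were therefore higher in panicle and lower in the other tissues, and R11-00279F_S2 moved over the wider range. The difference was 1.86 ± 0.33 in panicle (limma, adjusted p = 0.00982). In callus it was -1.80 with R11-00279F_S2 at its bound, which gives a contrast of 3.66 with no test. The signal of R11-00279F_S3 in callus was itself well above background in only 1 of the 2 replicates, so these values are not strict limits. Another probe of the locus, R11-00279F_S4, was at 2.16 and 2.21 in panicle.

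The turning pairs other than these 4 had measured contrasts from 1.29 to 3.84 in size. The largest of them was at locus R05-00497R, where the difference between R05-00497R_S1 and R05-00497R_S2 was 1.99 in root and -1.85 in callus (contrast 3.84 ± 0.29, limma, adjusted p = 0.00718). At locus R01-00548R the difference was -1.29 in root, 2.44 in panicle and -1.08 in callus. Panicle thus stood apart from root and callus at that locus. The smallest contrast was at locus R02-00802R, between R02-00802R_S2 and R02-00802R_S3, where it was 1.29 ± 0.23 for root minus callus (limma, adjusted p = 0.0492). These loci were chosen after their values were seen, as the ends of the range.

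Locus R02-00270R on chromosome 2 was 1 of the 2 loci with 5 clone-named probes. In root all 5 were called higher, with R02-00270R_S2 at 3.22 and 3.01, R02-00270R_S1 at 1.86 and 2.20 and R02-00270R_S3 at 2.18 and 1.93. R02-00270R_S5 was at 1.17 and 1.36 and R02-00270R_S4 at 0.90 and 1.05, and the common probe was at 2.28 and 2.19. In callus the order of the probes was another one. There R02-00270R_S5 was at 0.83 and 0.47 and R02-00270R_S4 at 0.58 and 0.39, whereas R02-00270R_S1 was at -0.48 and -0.28, R02-00270R_S2 at -0.32 and -0.33 and R02-00270R_S3 at -0.75 and -0.87. The former 2 probes lay above the latter 3 in callus and below them in root, without overlap. Of the clone-named probes, R02-00270R_S5 was called higher in callus (limma, adjusted p = 0.0154) and R02-00270R_S3 lower (adjusted p = 0.0107). The others were not called in callus. The difference between R02-00270R_S2 and R02-00270R_S4 was 2.14 ± 0.20 in root (limma, adjusted p = 0.0012) and -0.81 ± 0.20 in callus (adjusted p = 0.0281), and the contrast was 2.95 (adjusted p = 0.0118). The pairs _S2 and _S5, _S3 and _S4, and _S3 and _S5 of the locus also turned between root and callus.

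The other locus with 5 clone-named probes, R04-00205R on chromosome 4, changed little. In root R04-00205R_S1 was at 1.70 and 1.35 and was called higher (limma, adjusted p = 0.0131), as was R04-00205R_S3 at 0.67 and 0.51 (adjusted p = 0.00606). The probes _S2, _S4 and _S5 of the locus were between -0.71 and 0.78 in the root replicates and were not called. In panicle R04-00205R_S4, at -1.02 and -0.97, was called lower (adjusted p = 0.00182). R04-00205R_S1 and R04-00205R_S4 differed by 1.68 ± 0.42 in root (limma, adjusted p = 0.0303) and by 1.69 ± 0.42 in panicle (adjusted p = 0.0291), and no other pair of clone-named probes of this locus was called in either tissue. R04-00205R_S5 had replicates as far apart as 0.78 and -0.71 in root, so differences that involve it were not detectable at this precision.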

How the data were processed

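The 16 arrays are 2-color, dye-swapped hybridizations of rice RNA. The deposited intensity values are the Cy3 and Cy5 signals that the authors obtained with Agilent Feature Extraction (8.1.1.1 in the scanner files, 7.5 in the submitters' processing notes) after background subtraction and LOWESS dye normalization on rank-consistent probes. Mean signals and local backgrounds, used for an alternative, were deposited as intensity before normalization. The deposited log10 ratios come from the same software, in the direction tissue over shoot, and served as an alternative. Flags of 0 or 1 in the deposited files mark spots that are well above background, saturated or outliers.

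Outlier spots were left out. Log2 ratios of processed tissue over shoot signal were fitted with limma 3.58.1 (R 4.3.3), separately for the 8 arrays of each set, with 1 coefficient for every comparison and no dye term, and p-values were adjusted (Benjamini-Hochberg) over all probes of both sets, with a threshold of 0.05. The 1028 probes on both sets were averaged. Differences between probes of a locus were fitted likewise over the 8 hybridizations for all 61802 within-locus pairs. The scripts were tested on simulated data.

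Named pairs are, per comparison, the 4 called pairs with the largest difference and all signals well above background, unsaturated and of the same sign in both replicates, 1 per locus; the 3 loci with the strongest opposite calls (1 in IR64); the 2 largest departures from the common probe in each Nipponbare comparison; the 4 largest turning contrasts; and the 2 loci with most _S probes. The loci, lists and tests were chosen with earlier results of these data known.

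Deviations of same-numbered replicates correlated between comparisons at 0.216 to 0.480 over all probes, so the numbers were taken to pair the hybridizations. The main fits held no term for this pairing. Same-numbered hybridizations share the dye orientation and, except in callus, the named shoot extract; the part of either in the correlation was not tested. A replicate block was an alternative, as were normexp correction (offset 50) with loess, array centring, the deposited ratios, other filters on dim or saturated probes, pairs within 1 array set, fits on 1 comparison's arrays, and leaving out each replicate. Probe sequences and gene names were not used here.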

Additional observations from a re-analysis of the deposited data

Results flagged for a closer look

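In 4 pairs of clone-named probes the within-locus difference in log2 ratio differed between Nipponbare tissues by the largest contrasts of those that turned (limma, Benjamini-Hochberg over all within-locus pairs and 3 contrasts). R09-00235R_S1 minus R09-00235R_S2 gave -6.84 for panicle minus callus (adjusted p = 0.00634), R11-00279F_S2 minus R11-00279F_S3 gave a fitted 4.67 for the same tissues (adjusted p = 0.0127), R10-00071R_S1 minus R10-00071R_S2 gave -4.52 for root minus callus (adjusted p = 0.00634), and R07-00546R_S1 minus R07-00546R_S2 gave 4.22 for root minus panicle (adjusted p = 0.00676). The fitted value for R11-00279F rests on a callus signal of R11-00279F_S2 that was not well above background in either replicate. With that probe at its bound the contrast was 3.66, below the 3.84 of R05-00497R, and with normexp and loess it was 2.1, so its place among the largest does not hold. Within each of these pairs both replicates of a tissue lay on the same side, except for R09-00235R in panicle. Each contrast kept its direction when a hybridization was left out. The adjusted p then exceeded 0.05 in some cases: up to 0.0651 for R09-00235R without callus replicate 1, from 0.0618 to 0.095 for R11-00279F, whichever of the 6 Nipponbare hybridizations was left out, up to 0.0642 for R10-00071R without callus replicate 1 and up to 0.0642 for R07-00546R without callus replicate 1. The callus comparison rests on 1 shoot extract by its labels. For R07-00546R_S2 the shoot signal was not constant between the root and panicle arrays, as given above.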

How the results depend on the processing

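Counts of called clone-named probes, of called pairs with another clone-named probe, of called pairs with the common probe and of turning pairs were recomputed under each alternative. Of these recomputed counts 103 stayed within 1.5 times the main count and 35 did not. Restriction to pairs on the same array set, which leaves fewer pairs, gave 153, 134, 168 and 18 called pairs of clone-named probes in root, panicle, callus and IR64, 222, 217, 250 and 34 with the common probe, and 15 turning pairs. Fits on the arrays of 1 comparison alone gave, in panicle, 156 pairs of clone-named probes and 261 with the common probe, and in IR64 limma called 0 probes, 0 pairs of clone-named probes and 0 pairs with the common probe, where 188, 95 and 146 had an unadjusted p under 0.05. Leaving out a replicate in turn gave 442 to 469 called probes in root, 519 to 528 in callus, 522 to 554 in panicle and 68 to 95 in IR64. Called pairs of clone-named probes were then 140 to 141 in root, 173 to 184 in panicle, 173 to 178 in callus and 23 to 27 in IR64, pairs with the common probe 208 to 226, 286 to 329, 282 to 284 and 32 to 49, and turning pairs 0 to 9. The replicate block changed no count by over 1.5 times, with 301, 285, 332 and 45 called pairs of clone-named probes and 36 turning pairs. For the named differences no direction reversed, but normexp with loess lowered these in size by over 1.5 times: R11-00010F from -4.99 to -2.93, R12-00389F from 3.73 to 1.59 and R06-00280R from 3.21 to 2.03 in root, R05-00654R from 3.75 to 2.1 and R02-00095F from -6.55 to -4.00 in panicle, R02-01065F from -3.41 to -1.86 in IR64, and the contrast of R11-00279F from 4.67 to 2.1. Of the recomputed values 333 kept their call and 20 lost it: the 4 IR64 pairs with only the IR64 arrays (adjusted p = 0.438) and, in 16 cases, turning contrasts without 1 hybridization. Values near background limit the dim probes.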
